A study of Homo sapiens with 3 samples.

Results

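The 58 genes described here encode proteins of the nucleolus that make ribosomes. They were taken by name and not by a threshold on measured values, from a list drawn up with earlier results of these data known. Of 16922 genes named on the array, these 58 include 54 with at least 1 probe, and 68 probes in all. At least 1 probe was above background on at least 1 array for 45 of them, and 44 of those were above background on all 3 arrays. The genes with no named probe here were WDR43, EBNA1BP2, DDX18 and GNL3. Those with probes that were not above background on any array were POLR1A, POLR1B, UBTF, UTP20, PWP2, WDR3, MPHOSPH10, NPM1 and TCOF1.

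Gene expression was measured on Illumina bead arrays in RWPE1, a benign human prostate epithelial line that was immortalised with papillomavirus sequence. The cells had been infected with a retrovirus carrying MYC, with one carrying the constitutively active PI3K allele E545K, or with the empty vector named PMN. All 3 derivatives were kept in the same serum-free keratinocyte medium with pituitary extract and EGF and received no treatment before harvest. The labels give 1 array per group and do not say whether each derivative was a clone or a pool, so the differences below carry no test, no p-value and no check by replicates. The MYC-labelled array carried a MYC probe signal of 5229, against 3520 on the PI3K array and 6229 on the vector array. That probe goes against the label in showing no higher signal, and whether it reads the introduced coding sequence was not tested. Each direction below that involves the MYC-labelled array therefore rests on its label. No probe was named for PIK3CA.

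Median signal before scaling was 129 on the MYC-labelled array and 159 on the vector array, and between 9097 and 9700 of 24526 probes passed background on each array. Of the basal epithelial markers with a probe, 5 of 6 were above background on the MYC-labelled array and 6 of 6 on the PI3K and vector arrays, with summed signals of 17847, 36793 and 51437 in that order. TP63, a defining basal factor, had no named probe. Of the luminal prostate markers 0 of 4 were above background on any array. Of 9 markers of leukocytes, endothelium, stroma and neuroendocrine cells, only the monocyte receptor CD14 passed, on the vector array, at a signal of 307. These sums are carried by the keratins KRT5 and KRT14, which were lower than on the vector array by log2 differences of -1.66 and -1.98 on the MYC-labelled array and of -0.56 and -0.85 on the PI3K array. Markers of the same list did not all run that way: the integrin ITGA6 was at 0.25 (MYC-labelled) and 0.99 (PI3K), and ITGB4 at -0.23 (MYC-labelled) and 0.72 (PI3K). The part of these marker differences in the results below was not tested. Fewer cells of a type and less RNA per cell cannot be told apart in such bulk samples.

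Ribosomes are assembled in the nucleolus. RNA polymerase I copies the ribosomal DNA into a long precursor, small nucleolar ribonucleoproteins (snoRNPs) guide its chemical modification, and large sets of assembly factors cut, fold and export the small and large subunits. MYC is known to drive this programme in many cell types, in part by binding the E-box sequence CACGTG near the start sites of such genes. PI3K acts on ribosome production mainly through mTOR signalling.

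Because the genes share a programme in which E-boxes are known, the RefSeq promoter windows (GRCh38.p14, 250 bases before to 50 after the annotated start) were searched for CACGTG, which reads the same on both strands. Promoter entries matched 47 of the 58 genes. The E-box was present at the first listed start of 17 of these 47 genes (36.2%). It was present in the same window for 10.9% of the 6947 measured genes with an entry and for 7.43% of all 27305 genes with an entry. When every listed start of a gene was read, the shares were 44.7% of the 47 genes, 13.4% of measured genes and 8.77% of all genes. Most of the motifs lay close to the start: for 16 of the 17 genes the one nearest to it began within 40 bases on either side, including MYBBP1A at 28 bases after the start. A match is a description of the letters, and binding was not measured.

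The windows below run from 120 bases before to 30 bases after the start, are read on the gene's strand and show the E-box in capitals. The first 4 are the genes with 1 listed start, an E-box inside the window and the highest signals on the MYC-labelled array relative to the vector array. The last 2 have no E-box, and are the highest and the lowest such gene in the same comparison.
RRP9 (chr3:51941875-51942024, minus strand): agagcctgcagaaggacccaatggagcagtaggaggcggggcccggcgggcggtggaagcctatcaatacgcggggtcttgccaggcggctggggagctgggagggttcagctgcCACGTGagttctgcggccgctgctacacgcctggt
NOP14 (chr4:2963377-2963526, minus strand): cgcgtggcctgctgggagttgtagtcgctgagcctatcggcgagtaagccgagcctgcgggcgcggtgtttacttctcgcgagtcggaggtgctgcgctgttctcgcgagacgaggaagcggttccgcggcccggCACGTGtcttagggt
NAT10 (chr11:34105509-34105658, plus strand): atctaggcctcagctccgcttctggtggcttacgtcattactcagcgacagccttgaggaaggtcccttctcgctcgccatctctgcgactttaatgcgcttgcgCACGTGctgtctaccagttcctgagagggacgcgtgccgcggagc
PES1 (chr22:30591881-30592030, minus strand): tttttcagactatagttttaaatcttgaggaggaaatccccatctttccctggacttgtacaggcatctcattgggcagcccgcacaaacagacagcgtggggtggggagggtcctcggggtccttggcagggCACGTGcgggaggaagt
HEATR1 (chr1:236604487-236604636, minus strand): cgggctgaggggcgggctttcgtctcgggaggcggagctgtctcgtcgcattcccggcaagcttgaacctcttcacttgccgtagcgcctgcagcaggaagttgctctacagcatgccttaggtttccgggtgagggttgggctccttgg
GRWD1 (chr19:48445863-48446012, plus strand): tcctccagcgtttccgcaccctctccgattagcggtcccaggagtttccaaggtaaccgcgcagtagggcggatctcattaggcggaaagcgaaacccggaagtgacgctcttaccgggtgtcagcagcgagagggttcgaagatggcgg

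Measured genes with and without the E-box at the first listed start had nearly the same medians. Over every listed start 16 measured genes had the E-box, so the group without it here includes some of these. On the MYC-labelled array relative to the vector array, the median log2 difference was 0.64 for the 13 measured genes with the motif at the first listed start and 0.62 for the 24 without it. The PI3K array relative to the vector array gave 0.28 with the motif and 0.32 without it. BYSL, which helps to mature the small subunit, carries an E-box starting 29 bases after the start and had a log2 difference of 0.02 on the MYC-labelled array. HEATR1, which has no E-box in the window, was at 0.88.

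Nucleolar genes had higher signals on the MYC-labelled array than on the vector array almost throughout. Of the 45 measured genes, 44 lay above 0, beside 56.4% of all 8147 genes measured in that comparison. Their median log2 difference was 0.64, against a median of 0.07 over all genes measured. At least 1.5-fold higher were 25 of the 45, beside 10.8% of all genes, and 4 were at least 2-fold higher, beside 2.31%. At least 1.5-fold lower were 0 of the 45, beside 10.5% of all genes, and 0 were at least 2-fold lower, beside 4.77%. The 4 past 2-fold were NOLC1, RRP12, BOP1 and MYBBP1A, and the lone gene below 0 was GRWD1. The count above 0 was 42 of 45 after background correction and quantile normalisation, and also after centring on the median of all genes, with BYSL and BRIX1 just below 0 in both settings.

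The PI3K array showed a smaller difference from the vector array in the same genes. Of the 45, 35 lay above 0, beside 55.1% of 8136 genes measured, and the median log2 difference was 0.30 against 0.05 over all genes. At least 1.5-fold higher were 6 of the 45, beside 8.54% of all genes: MYBBP1A, BOP1, NAT10, RRP12, NOC4L and NOLC1. None was at least 1.5-fold lower, beside 9.78% of all genes, and none was 2-fold apart, beside 1.2% of all genes at least 2-fold higher and 4.03% lower. A list of housekeeping genes, 19 of them measured, had a median of 0.22 in this comparison, and of 0.095 after background correction and quantile normalisation. At least 1.5-fold higher were 4 of these 19, beside 8.54% of all genes. On the MYC-labelled array relative to the vector array the housekeeping median was 0.00. The part of the housekeeping shift in the PI3K result was not tested. Both comparisons use the same vector array, so they are not independent of each other.

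**Figure D1:**
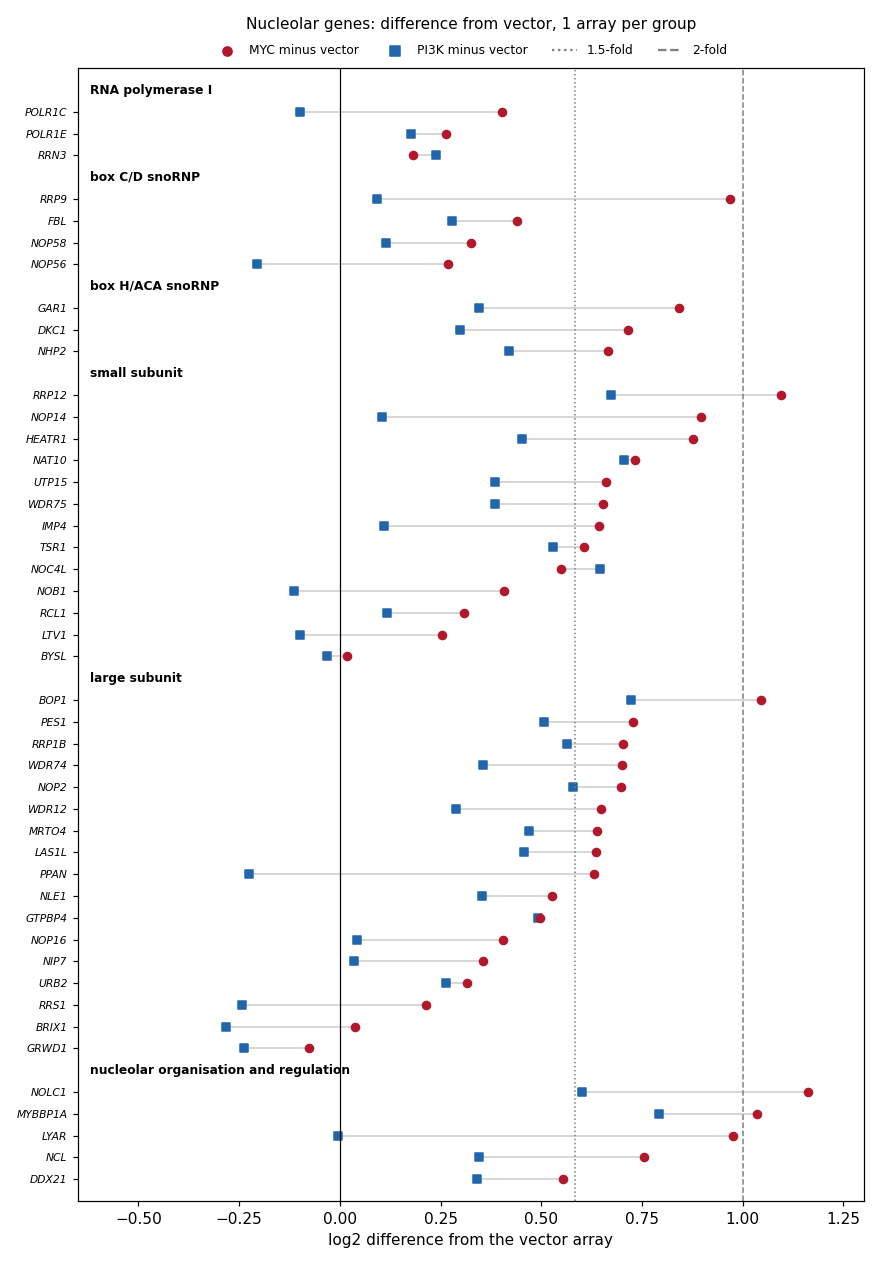
Log2 difference from the vector array (x axis) of each measured nucleolar gene (rows, grouped by role), for the MYC-labelled array (red circles) and the PI3K array (blue squares), 1 array per group. The red circles of 25 genes lie at or right of the dotted 1.5-fold line, against 6 blue squares, and 4 red circles lie past the dashed 2-fold line.

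The only error available is technical. Among 719 genes read by at least 2 probes that passed background on every array, the SD of a single probe's log2 difference was 0.20 for the MYC-labelled minus vector difference, 0.21 for the PI3K array against the vector array and 0.18 between the MYC-labelled array and the PI3K array. It leaves out differences between cultures, RNA preparations and hybridisations. The 1.5-fold threshold is 0.585 on the log2 scale. A single gene at 0.20 or less is within 1 technical SD, and a value somewhat above 0.20 is not thereby beyond technical error.

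**Figure D2:**
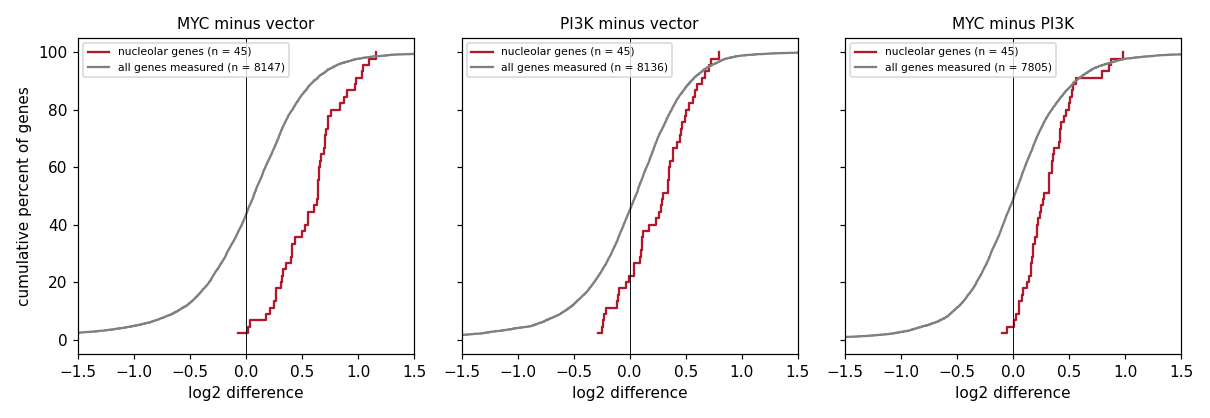
Cumulative percent of genes (y axis) against log2 difference (x axis) for the 45 measured nucleolar genes (red) and all genes measured (grey), in each comparison. The red curve lies to the right of the grey one by the most in the comparison of the MYC-labelled array with the vector array, where the medians are 0.64 and 0.07.

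RNA polymerase I genes had the smallest differences of the role groups on the MYC-labelled array, and only 3 of 6 were measured. Their median log2 difference was 0.26 on the MYC-labelled array and 0.18 on the PI3K array, each relative to the vector array. In either comparison 0 of 3 were at least 1.5-fold higher, beside 10.8% (MYC-labelled) and 8.54% (PI3K) of all genes. POLR1C, a subunit shared with RNA polymerase III, had signals of 2147 on the MYC-labelled array, 1514 on the PI3K array and 1623 on the vector array. The MYC-labelled array was the high one for POLR1C, at a log2 difference of 0.40 from the vector array, and the PI3K array was at -0.10. RRN3, the initiation factor that recruits the polymerase, had signals of 616 on the MYC-labelled array, 642 on the PI3K array and 544 on the vector array. These are differences from the vector array of 0.18 (MYC-labelled) and 0.24 (PI3K), about the size of the technical error, and related copies of RRN3 in the genome could share its probe. POLR1E, another polymerase subunit, was at 0.26 (MYC-labelled) and 0.18 (PI3K). The catalytic subunits POLR1A and POLR1B and the upstream binding factor UBTF, which marks active ribosomal genes, were not above background.

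Box C/D snoRNP proteins, which carry out ribose methylation of the precursor, split into an abundant core with small differences and one factor with a large one. The group's median was 0.38 on the MYC-labelled array and 0.10 on the PI3K array. Past 1.5-fold were 1 of 4 on the MYC-labelled array, beside 10.8% of all genes, and 0 of 4 on the PI3K array, beside 8.54%. The methyltransferase FBL had signals of 9843 on the MYC-labelled array, 8797 on the PI3K array and 7255 on the vector array, at differences of 0.44 (MYC-labelled) and 0.28 (PI3K) from the vector array. The scaffold NOP56 had 8022 on the MYC-labelled array, 5774 on the PI3K array and 6664 on the vector array. The PI3K array was the low one, at -0.21, which is about the size of the technical error, while the MYC-labelled array was at 0.27. Its partner NOP58 was at 0.32 (MYC-labelled) and 0.11 (PI3K). RRP9, a protein specific to the U3 snoRNP that starts precursor cleavage, had a signal of 471 on the MYC-labelled array, against 257 on the PI3K array and 241 on the vector array. The MYC-labelled array stood alone for RRP9, at 0.97 above the vector array. The PI3K signal of RRP9 was not above that array's cut-off. Its vector signal was only just above the vector array's own cut-off of 233.3, so the 0.97 rests on a reference value near background.

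Box H/ACA snoRNP proteins, which convert uridines to pseudouridine, were represented by 3 genes. All 3 passed 1.5-fold on the MYC-labelled array, beside 10.8% of all genes, with a median of 0.71. On the PI3K array 0 of 3 passed it, beside 8.54% of all genes, and the median was 0.35. The shell protein GAR1 had signals of 6926 on the MYC-labelled array, 4913 on the PI3K array and 3865 on the vector array. The pseudouridine synthase DKC1 had 8556 on the MYC-labelled array, 6408 on the PI3K array and 5213 on the vector array. NHP2, an RNA-binding core protein, had 5951 on the MYC-labelled array, 5020 on the PI3K array and 3751 on the vector array. For all 3 genes the MYC-labelled array was highest, the PI3K array in between and the vector array lowest. The log2 differences from the vector array were 0.84 (MYC-labelled) and 0.35 (PI3K) for GAR1, 0.71 (MYC-labelled) and 0.30 (PI3K) for DKC1, and 0.67 (MYC-labelled) and 0.42 (PI3K) for NHP2. The other core protein NOP10 and the assembly factors NAF1 and SHQ1, which belong to the wider list below and not to the 58 genes, had smaller differences. NOP10 was at 0.28 (MYC-labelled) and 0.17 (PI3K), NAF1 at 0.17 (MYC-labelled) and -0.03 (PI3K), and SHQ1 at 0.28 (MYC-labelled) and -0.17 (PI3K), so 0 of these 3 passed 1.5-fold.

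Small-subunit factors ran over a wide range on the MYC-labelled array. Of 13 measured, 13 lay above 0 there, beside 56.4% of all genes, and 8 passed 1.5-fold, beside 10.8%. Their median was 0.64. On the PI3K array 10 of 13 lay above 0, beside 55.1% of all genes, and 3 passed 1.5-fold, beside 8.54%, with a median of 0.38. RRP12, which assists export and maturation of the pre-ribosomes, was the highest on the MYC-labelled array, with signals of 1841 there, 1376 on the PI3K array and 862 on the vector array. Its differences from the vector array were 1.09 (MYC-labelled) and 0.67 (PI3K). The acetyltransferase NAT10, which modifies the small-subunit RNA, had 3047 on the MYC-labelled array, 2991 on the PI3K array and 1834 on the vector array. NAT10 was thus about equally high on both oncogene arrays, at 0.73 (MYC-labelled) and 0.71 (PI3K).

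Next below RRP12 on the MYC-labelled array were NOP14 and HEATR1. NOP14, which joins the early small-subunit particle, had a signal of 1706 on the MYC-labelled array, 985 on the PI3K array and 916 on the vector array, so it was high on the first alone, at 0.90 (MYC-labelled) beside 0.10 (PI3K). HEATR1, which links precursor transcription with processing, was at 0.88 (MYC-labelled) and 0.45 (PI3K), and the processome proteins UTP15 (0.66 MYC-labelled, 0.38 PI3K) and WDR75 (0.65 MYC-labelled, 0.39 PI3K) were lower than it in both. IMP4, a protein of the U3-associated MPP10 complex, was at 0.64 (MYC-labelled) and 0.11 (PI3K). NOC4L, the partner of NOP14, was at 0.55 (MYC-labelled) and 0.65 (PI3K).

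The lowest values of the group on the MYC-labelled array were those of BYSL, LTV1, RCL1 and NOB1. BYSL had signals of 1603 on the MYC-labelled array, 1550 on the PI3K array and 1584 on the vector array, which is a difference of 0.02 (MYC-labelled) and -0.03 (PI3K). The endonuclease NOB1, which makes the last cut of the small-subunit RNA, had 813 on the MYC-labelled array, 567 on the PI3K array and 613 on the vector array, at 0.41 (MYC-labelled) and -0.11 (PI3K). The export factor LTV1 was at 0.25 (MYC-labelled) and -0.10 (PI3K). TSR1, which acts late in small-subunit maturation like NOB1, was higher than these, at 0.61 (MYC-labelled) and 0.53 (PI3K). RCL1, which acts on the precursor earlier, was at 0.31 (MYC-labelled) and 0.12 (PI3K).

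Large-subunit factors were the largest group, with 17 measured. On the MYC-labelled array 16 lay above 0, beside 56.4% of all genes, and 9 passed 1.5-fold, beside 10.8%. The median there was 0.63, which was 0.53 when the probes of a gene were averaged. On the PI3K array 13 lay above 0, beside 55.1% of all genes, with a median of 0.35. The 1 gene past 1.5-fold there is 5.88% of the 17, no more than the 8.54% of all genes. BOP1 had signals of 5194 on the MYC-labelled array, 4154 on the PI3K array and 2519 on the vector array, at differences of 1.04 (MYC-labelled) and 0.72 (PI3K). BOP1 forms the PeBoW complex with PES1 and WDR12, which is needed to process the large-subunit RNA. PES1 was at 0.73 (MYC-labelled) and 0.51 (PI3K), and WDR12 at 0.65 (MYC-labelled) and 0.29 (PI3K), so all 3 members of the complex passed 1.5-fold on the MYC-labelled array and BOP1 alone did so on the PI3K array.

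Others past 1.5-fold on the MYC-labelled array were RRP1B at 0.70, WDR74 at 0.70, the RNA methyltransferase NOP2 at 0.70, the P0 exchange factor MRTO4 at 0.64, LAS1L, which cleaves the spacer between the large-subunit RNAs, at 0.64, and PPAN at 0.63. Short of it were NLE1 at 0.53, the GTPase GTPBP4 at 0.50, NOP16 at 0.41, NIP7 at 0.35, URB2 at 0.32 and RRS1 at 0.21. GTPBP4 was at 0.49 on the PI3K array as well. The lowest values of the group were those of RRS1, BRIX1 and GRWD1. BRIX1 had signals of 3530 on the MYC-labelled array, 2830 on the PI3K array and 3441 on the vector array, at 0.04 (MYC-labelled) and -0.28 (PI3K). GRWD1, a histone-binding nucleolar protein, had 1945 on the MYC-labelled array, 1737 on the PI3K array and 2050 on the vector array, at -0.08 (MYC-labelled) and -0.24 (PI3K). RRS1 was at -0.24 on the PI3K array.

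The proteins that organise the nucleolus and regulate its transcription had the highest median of the role groups on the MYC-labelled array. It was 0.98 over 5 measured genes, of which 4 passed 1.5-fold, beside 10.8% of all genes. With members below background included the median was 0.75. On the PI3K array their median was 0.35 and 2 of 5 passed 1.5-fold, beside 8.54% of all genes. NOLC1, a chaperone that shuttles snoRNPs, had the highest difference of all 45 genes on the MYC-labelled array, with signals of 2118 there, 1437 on the PI3K array and 947 on the vector array. It was 2.24-fold higher on the MYC-labelled array and 1.52-fold higher on the PI3K array, each relative to the vector array. MYBBP1A, which binds the polymerase I machinery, had 660 on the MYC-labelled array, 558 on the PI3K array and 322 on the vector array. Relative to the vector array MYBBP1A was 2.05-fold higher on the MYC-labelled array. On the PI3K array it was 1.73-fold higher, which is the highest value of the 45 genes there.

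Nucleolin (NCL), the main RNA-binding protein of the nucleolus, had signals of 14441 on the MYC-labelled array, 10884 on the PI3K array and 8560 on the vector array, at 0.75 (MYC-labelled) and 0.35 (PI3K). LYAR, a zinc finger protein of the nucleolus, had 5376 on the MYC-labelled array, 2722 on the PI3K array and 2733 on the vector array. The MYC-labelled array was thus alone high for LYAR, at 0.98, and the PI3K array was at -0.01. The helicase DDX21 was at 0.55 (MYC-labelled) and 0.34 (PI3K), with signals of 9954 on the MYC-labelled array, 8588 on the PI3K array and 6779 on the vector array. NPM1, an abundant nucleolar protein, has related copies in the genome, and its 1 probe was not above background on any array.

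**Figure D3:**
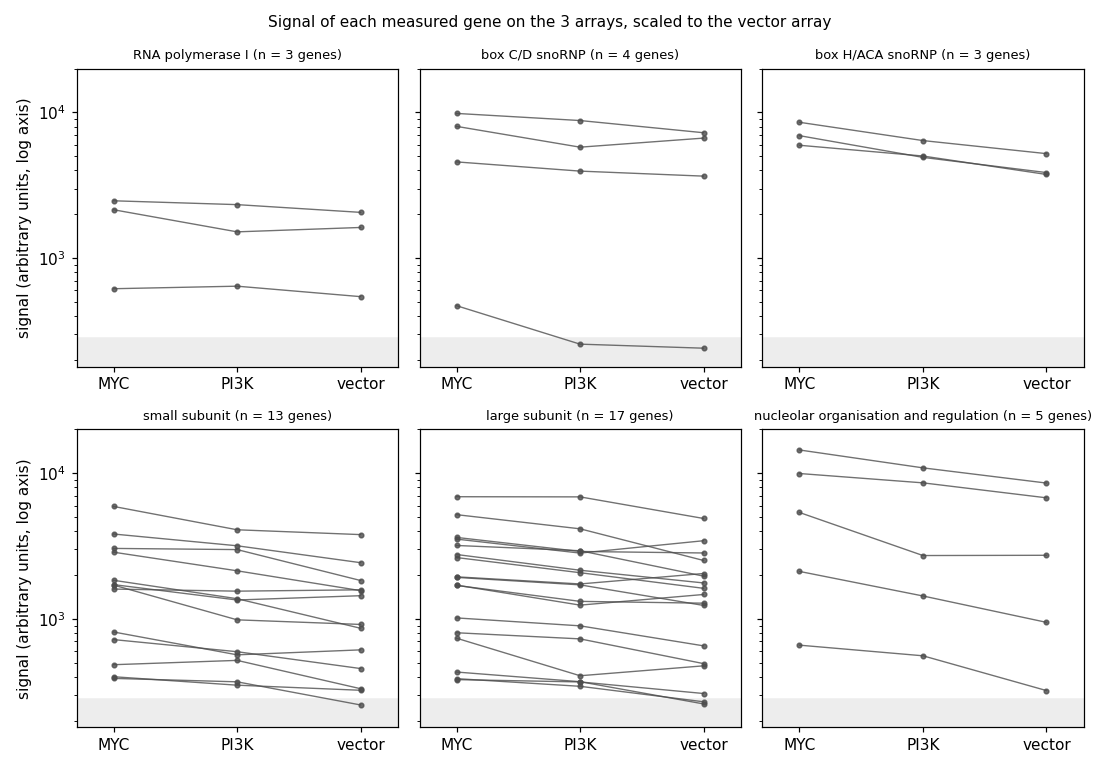
Signal of each measured gene (lines) on the MYC-labelled array, the PI3K array and the vector array, scaled to the vector array, on a log axis in arbitrary units, by role. The grey band lies under 283.7, the cut-off used for the MYC-labelled array and the PI3K array, and in most panels the lines are highest at the left.

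Set directly against the PI3K array, the MYC-labelled array had the higher signal for 43 of 45 genes, beside 51.1% of 7805 genes measured, with a median log2 difference of 0.28 against 0.01 over all genes. At least 1.5-fold higher were 4 of 45, beside 9.15% of all genes, which is near the background share, and 0 were at least 1.5-fold lower, beside 8.14%. None was 2-fold apart, beside 2.29% of all genes at least 2-fold higher and 2.63% lower. Of the 45 genes, 42 had their highest signal of the 3 arrays on the MYC-labelled array, beside 37.7% of all 8270 genes above background. The difference was therefore spread over most of the genes in small amounts. The housekeeping list had a median of -0.20 in this comparison.

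The 4 genes past 1.5-fold were LYAR at 0.98, RRP9, PPAN and NOP14, each in a different role group. RRP9 was at least 1.66-fold higher on the MYC-labelled array, since it was not above background on the PI3K array. PPAN, a large-subunit factor, had 737 on the MYC-labelled array and 407 on the PI3K array, with 476 on the vector array. The PI3K array was thus the low one, at -0.23 from the vector array, which is about the size of the technical error. A transcript that joins PPAN to its neighbouring gene is annotated, and a probe may read both. NOP14 was at 0.79. At the other end GTPBP4 (0.00), NAT10 (0.03), BYSL (0.05), URB2 (0.05) and TSR1 (0.08) had nearly equal signals on both arrays. RRN3 (-0.06) and NOC4L (-0.10) were the 2 genes below 0, but the second NOC4L probe gave 0.19.

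By role, the median of this direct comparison was 0.42 for box H/ACA proteins, 0.41 for nucleolar organisation, 0.34 for box C/D proteins, 0.28 for small-subunit factors, 0.22 for large-subunit factors and 0.09 for RNA polymerase I. The role groups hold 3 to 17 measured genes, the technical SD was 0.18 per gene, and whether any of these medians differ was not tested. Over the genes above background on both arrays the box C/D median was 0.21. With the PI3K array's background taken at the vector array's cut-off, a setting chosen after seeing the data, 5 RNA polymerase I genes entered and their median was -0.058.

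**Figure D4:**
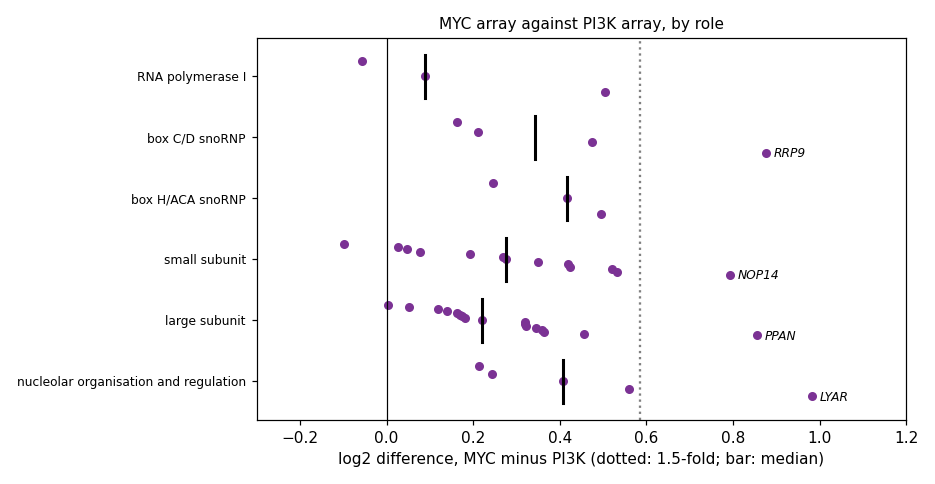
Log2 difference between the MYC-labelled array and the PI3K array (x axis) of each measured gene (points), by role, with the median of each group as a bar. LYAR, RRP9, PPAN and NOP14 lie past the dotted 1.5-fold line, and 2 genes lie left of 0.

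Several genes were read by more than 1 probe above background, which shows how far a single value can be trusted. The second NHP2 probe gave 0.58 on the MYC-labelled array, beside 0.67 for the brightest, and the second GAR1 probe gave 0.86, beside 0.84. NOP2 gave 0.62 beside 0.70, and NOC4L gave 0.68 beside 0.55. On the PI3K array the second NOC4L probe gave 0.49, beside 0.65 for the brightest, so the place of NOC4L past 1.5-fold there depends on the probe. Its sign between the MYC-labelled array and the PI3K array does too, at 0.19 beside -0.10. WDR74, a large-subunit factor, did not hold up: its 3 probes gave 0.70, 0.95 and -0.38 on the MYC-labelled array, and 0.36, 0.71 and -0.05 on the PI3K array. The third WDR74 probe had signals of 454 on the MYC-labelled array, 570 on the PI3K array and 591 on the vector array. The mean of the WDR74 probes was 0.42, so its place past 1.5-fold depends on the probe.

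**Figure D5:**
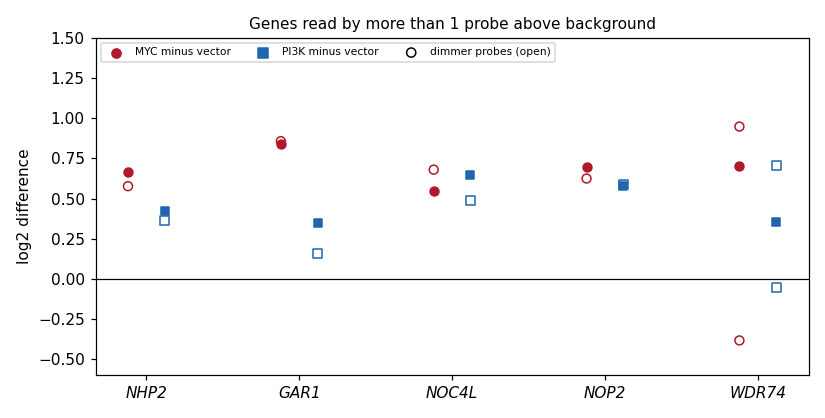
Log2 difference from the vector array (y axis) for the MYC-labelled array (red circles) and the PI3K array (blue squares), for each probe above background of the 5 genes with more than 1. Filled points are the brightest probe and open points the others. The probes of NHP2, GAR1, NOC4L and NOP2 lie above 0, and those of WDR74 lie on both sides of it.

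The difference between the MYC-labelled array and the vector array was similar at every brightness. When the measured genes were put into 3 equal classes by mean signal, the 8 nucleolar genes of the dim class had a median of 0.58 on the MYC-labelled array relative to the vector array, against 0.06 for all genes of that class. The 8 of the middle class had 0.65, against 0.05, and the 29 of the bright class had 0.64, against 0.09. The other comparisons moved more with brightness. On the PI3K array relative to the vector array the dim, middle and bright medians were 0.43, 0.31 and 0.29, and between the MYC-labelled array and the PI3K array they were 0.18, 0.35 and 0.32. The 9 genes that were not above background had a median of 0.33, close to the 0.30 of all 8652 genes below background, and nothing is read from them.

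A wider list of ribosome biogenesis genes had smaller medians. Of 85 further genes, 74 were measured against the vector array. On the MYC-labelled array, 67 of the 74 lay above 0, beside 56.4% of all genes, with a median of 0.32. There 13 were at least 1.5-fold higher, beside 10.8%, and 0 were 2-fold apart, beside 2.31% higher and 4.77% lower. On the PI3K array 48 lay above 0, beside 55.1% of all genes, with a median of 0.11. The 6 at least 1.5-fold higher there are a share near the 8.54% of all genes, and 0 were at least 1.5-fold lower, beside 9.78%. The highest on the MYC-labelled array was NOC2L, a large-subunit factor, at 0.86, with signals of 458 on the MYC-labelled array, 431 on the PI3K array and 253 on the vector array. The highest on the PI3K array was the small-subunit methyltransferase EMG1, with 4171 on the PI3K array, 3538 on the MYC-labelled array and 2137 on the vector array, at 0.96 (PI3K) and 0.73 (MYC-labelled). The lowest on the MYC-labelled array was the helicase DDX51, at -0.42.

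The same list held genes with unlike directions on the oncogene arrays. Above the vector array on the MYC-labelled array and below it on the PI3K array were 23 of the 74 (31.1%), beside 15.7% of all genes. The opposite held for 4 of the 74 (5.41%), beside 14.5% of all genes. Whatever their sign on the MYC-labelled array, 26 of the 74 lay below the vector array on the PI3K array, beside 3651 of 8136 genes measured. Of the 45 nucleolar genes, 9 (20.0%) had the first pattern and 0 the opposite one. All these signs were taken at 0 with no threshold, so they include values well inside the technical SD of about 0.2. LYAR, at -0.01 on the PI3K array, and BYSL, at 0.02 (MYC-labelled) and -0.03 (PI3K), are such cases. DIMT1, which methylates the small-subunit RNA, had signals of 4996 on the MYC-labelled array, 2533 on the PI3K array and 3271 on the vector array, at 0.61 (MYC-labelled) and -0.37 (PI3K). MAK16 was at 0.52 (MYC-labelled) and -0.37 (PI3K). SNU13, which binds the box C/D RNA, was at 0.21 (MYC-labelled) and -0.44 (PI3K). The RNA polymerase I subunit POLR1G was at 0.24 (MYC-labelled) and -0.43 (PI3K). For these 4 genes the PI3K array was the low one and the MYC-labelled array the high one. The opposite order held for the helicase DDX24, at -0.24 (MYC-labelled) and 0.30 (PI3K), and for the large-subunit factor EIF6, at -0.04 (MYC-labelled) and 0.44 (PI3K). It held also for NVL, at -0.01 (MYC-labelled) and 0.21 (PI3K), and for RRP36, at -0.29 (MYC-labelled) and 0.01 (PI3K). For EIF6, NVL and RRP36 the value on 1 of the arrays was thus close to 0.

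Cytosolic ribosomal protein genes, the products assembled by this machinery, had a median of 0.34 on the MYC-labelled array and 0.17 on the PI3K array, over 66 measured of 79 listed. These medians were 0.14 (MYC-labelled) and 0.04 (PI3K) after background correction and quantile normalisation, so they depended on the scaling, while the nucleolar genes gave 0.63 (MYC-labelled) and 0.27 (PI3K) in that setting. At least 1.5-fold higher on the MYC-labelled array were 7 of 66, beside 10.8% of all genes. Copies of ribosomal protein genes make their single values uncertain.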

How the data were processed

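RNA from 3 RWPE1 derivatives was hybridised to 1 Illumina array each. The authors deposited the linear intensity of every probe without normalisation, per the file headers, beside a detection fraction. Named there as a p-value, this fraction ranks with the signal (rank correlation 0.981 for the MYC-labelled array, 0.976 for the vector array), so it was taken to be 1 minus that p-value. These were used for those 2 arrays. A further 2 columns name no sample of the series and were not used. The authors also deposited log2 values for all 3 arrays. Their difference between the MYC-labelled array and the vector array equals the log2 signal ratio plus 0.52 at every probe (range of this constant 4e-06), which is the log2 ratio of the 75th percentiles (393.8 on the MYC-labelled array and 563.5 on the vector array). Deposited log2 differences therefore compare signals scaled to that percentile. A constant was taken from each probe before deposit and its origin stays unknown. The same scaling was assumed for the PI3K column. Column medians were 0.07 (MYC), 0.04 (PI3K) and -0.16 (vector). The tool GenomeStudio stands in the submitters' processing notes with no version.

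Signals of the MYC-labelled array and the PI3K array are given on the vector array's scale, which adds the deposited log2 difference to the log2 vector signal. A probe was above background at a detection p-value under 0.01, which is a signal of at least 233.3 on the vector array and 283.7, scaled, on the MYC-labelled array. The PI3K array took 283.7 as a substitute. The platform annotation gives 21834 of the 24526 probes a single gene symbol, none several, and leaves 2692 unnamed here. Symbols were updated by gene ID for 21813. A gene took its brightest probe that passed background anywhere, and entered a comparison if above background on at least 1 of its 2 arrays. No value was set against that of another probe. With 1 array per group nothing was tested. Folds of 1.5 and 2 were counted, and the number of arrays limits the precision. The 58 genes and the other gene lists were chosen with earlier results of these data known. All of the 58 could be named. Full signals were given for those past 2-fold, the highest and lowest of each role group in each comparison with the vector array and those whose probes disagree in sign, and further genes were named after their values were seen. Alternatives were normexp background correction (offset 50) with quantile normalisation in limma 3.58.1 under R 4.3.3, centring, other detection filters, averaged probes and bounds for dim genes. The difference calculation was tested on simulated data.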

Additional observations from a re-analysis of the deposited data

How the results depend on the processing

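The medians of the nucleolar genes stayed above 0 relative to the vector array under all 7 alternatives, at 0.57 to 0.64 on the MYC-labelled array and 0.24 to 0.32 on the PI3K array. The distance from all genes was less stable. With no detection filter the medians over all genes rose from 0.07 to 0.23 (MYC-labelled) and from 0.05 to 0.20 (PI3K). The nucleolar genes had 0.58 (MYC-labelled) and 0.29 (PI3K) in that setting, so the PI3K median was then close to that of all genes. Against the PI3K array the median of the MYC-labelled array ranged from 0.23 to 0.28. Single genes near 0 changed sign: of the 45 genes, 42 in place of 44 lay above 0 on the MYC-labelled array with normexp and quantile normalisation or with centring, and on the PI3K array these settings gave 34 and 33 in place of 35. Genes at least 1.5-fold higher on the MYC-labelled array numbered 19 to 25 of 45, and 27 of 54 with no detection filter. On the PI3K array they numbered 5 or 6, of 44 to 54 genes by setting. Centred on the median of all genes, 2 rather than 4 genes were at least 2-fold higher on the MYC-labelled array. With probes averaged, the large-subunit median there was 0.53. With no detection filter, the median of nucleolar organisation genes was 0.75 there and 0.24 against the PI3K array. The box C/D median against the PI3K array was 0.21 over genes above background on both arrays. The RNA polymerase I median against the PI3K array was -0.058 with the lower PI3K cut-off, against 0.09, because 5 genes in place of 3 were then measured. No paired analysis was possible because each group has 1 array. Leaving out a replicate was not possible for the same reason. Signals near background limit RRP9, TSR1, PES1, NLE1 and URB2, and the detection calls of the PI3K array rest on a substitute cut-off.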

Other observations

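The RNA exosome, which trims the ends of ribosomal RNA precursors, had a median log2 difference of 0.29 on the MYC-labelled array and 0.10 on the PI3K array, each relative to the vector array, over 11 measured of 12 listed genes. At least 1.5-fold higher were 1 of 11 on the MYC-labelled array, the core subunit EXOSC7 at 0.66, and 0 of 11 on the PI3K array. These stand beside 10.8% (MYC-labelled) and 8.54% (PI3K) of all genes, and 1 of 11 is near that share. EXOSC5, another core subunit, had signals of 2679 on the MYC-labelled array, 1567 on the PI3K array and 2076 on the vector array, so the PI3K array was the low one, at -0.41.

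The E-box CACGTG was present at the first listed start of 22 of 75 further ribosome biogenesis genes with a promoter entry (29.3%), 1 of 10 exosome genes and 3 of 63 cytosolic ribosomal protein genes (4.76%), beside 10.9% of measured genes. Over all measured genes, the median log2 difference on the MYC-labelled array relative to the vector array was 0.14 for the 755 with the motif and 0.06 for the 6097 without it. The PI3K array relative to the vector array had the same direction, at 0.09 for the 749 with the motif and 0.05 for the 6096 without it.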
